A study of Danio rerio with 30 samples.

Results

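Imiquimod was compared with its solvent DMSO in haematopoietic stem and progenitor cells of zebrafish larvae that were heterozygous for a mutation of rps14 and had been stressed with phenylhydrazine. The comparison took every library titled for those 2 conditions, 4 with imiquimod and 5 with DMSO, which is 9 of the 30 RNA-seq libraries of the series. Larvae of both conditions carried the Tg(itga2b:GFP) transgene, in which the promoter of the platelet integrin gene itga2b drives GFP, and the GFP-low fraction was sorted from pooled larvae at 6 days post fertilization. Both had been kept in 1 µg/mL phenylhydrazine (Phz), which breaks down red blood cells, between 24 and 48 hours post fertilization, and then for 4 days in 20 µM imiquimod or in DMSO. Genotypes came from tail clips taken before pooling, and libraries were made by Smart-seq2, a full-length cDNA method for small amounts of RNA. The other 21 libraries held wild-type larvae and larvae that had not received Phz. Of those, 2 pairs of groups were used to ask whether the imiquimod effect differed elsewhere: wild type after Phz (4 imiquimod, 3 DMSO) and heterozygotes without Phz (3 imiquimod, 4 DMSO).

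Imiquimod is a small synthetic agonist of the endosomal receptor TLR7 in mammals. TLR7 binds single-stranded RNA and signals through the adaptor MYD88 and the kinases and ligases IRAK4 and TRAF6 to NF-kB, which switches on cytokine genes, and to IRF7, which switches on interferon genes. Inflammatory signalling of this kind also acts on blood stem cells in development and under stress. The product of rps14 belongs to the small subunit of the ribosome, and partial loss of such proteins in vertebrates impairs red cell formation and raises p53 activity.

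The sort was checked by markers fixed for blood and other cells. Transcripts of progenitor regulators were present in all 9 libraries: the transcription factor gene MYB lay at 517 to 799 CPM (counts scaled to the same library total of 1e+06) with imiquimod and 541 to 1107 CPM with DMSO, and SPI1, a myeloid and stem cell regulator, at 368 to 484 and 348 to 619 CPM. The sorted RNA also held abundant transcripts of the neutrophil and macrophage enzyme gene lyz, at 5268 to 11471 CPM with imiquimod and 5493 to 15885 CPM with DMSO, and of the red cell anion exchanger SLC4A1, at 742 to 1319 and 548 to 1018 CPM. The symbol SLC4A1 is shared by 2 identifiers, and the other one was at no more than 0.325 CPM in these libraries. In bulk RNA a smaller share of cells of a type and less RNA per cell cannot be told apart. Total counts were 6877888 to 15238153 per library with imiquimod and 6110127 to 8682242 with DMSO. The labels do not say whether replicates are separate pools of larvae, and the spread behind each p-value is that among these libraries, which may be partly technical.

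The DMSO libraries were not alike. The labels number the libraries S6, S22, S23 and S24 with imiquimod and S27, S28, S29, S32 and S33 with DMSO (replicates 1 to 4 and 1 to 5 in that order), and they do not say what the numbers stand for. A chi-square statistic per gene over sampling noise was 26.9 to 32.7 between pairs among S27, S28 and S29, and 37.07 between S32 and S33, but 56.7 to 65.1 between libraries of these 2 runs. Among imiquimod libraries it was 17.01 to 40.28, so no pair was a repeat of 1 library. S30 and S31, which are wild-type DMSO libraries after Phz, shared with S32 and S33 the low levels of il1b, nfkbiaa and MMP9 described next. No imiquimod library has a number from S25 to S33, so treatment and place in the numbering cannot be told apart. Several results that rest on S32 and S33, but not all, are given with and without S30 to S33.

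Several inflammatory transcripts, il1b, nfkbiaa, MMP9 and cxcl8a among them, were higher in all 4 imiquimod libraries and in 3 of the 5 DMSO libraries than in the remaining DMSO pair, where il1b and cxcl8a were at or near 0. il1b, the gene of the fever cytokine interleukin 1 beta, had 219, 703, 608 and 518 CPM with imiquimod (S6, S22, S23, S24) and 1216, 842, 1018, 2.30 and 0.836 CPM with DMSO (S27, S28, S29, S32, S33). Every imiquimod library thus lay below S27, S28 and S29 and far above S32 and S33. nfkbiaa, which encodes an inhibitor of NF-kB and is itself a target of that factor, had 254, 986, 805 and 756 CPM with imiquimod, against 1366, 670.5, 964, 29.5 and 62.9 CPM with DMSO. The matrix protease gene MMP9 had 44.3, 562, 229 and 217 CPM with imiquimod and 402, 819, 283, 37.6 and 25.2 CPM with DMSO. For MMP9 the imiquimod library S6 was close to the low DMSO pair, which was not so for il1b. The neutrophil chemokine gene cxcl8a had 10.2, 24.3, 38.8 and 24.98 CPM with imiquimod, against 23.2, 16.8, 28.2, 0.0 and 0.0 CPM with DMSO. Not every inflammatory gene had this pattern. The cytokine gene tnfa had 1.45, 0.718, 4.73 and 2.79 CPM with imiquimod and 4.27, 7.02, 7.78, 0.0 and 7.11 CPM with DMSO, so that S33 lay above every imiquimod library. nfkb2, which encodes an NF-kB subunit, had 71.2, 149, 142 and 86.6 CPM with imiquimod and 170, 149, 123, 53.2 and 109.8 CPM with DMSO, with S33 above S6 and S24.

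With all 5 DMSO libraries none of these genes had a difference beyond its error. edgeR's quasi-likelihood test is a count model that pools the spread over all genes. Its log2 fold change of imiquimod over DMSO is positive where imiquimod is higher. The ± value on a fold change is an approximate standard error. It is the log2 fold change without its sign, divided by the square root of the test's F statistic. The log2 fold change was -0.27 ± 1.52 for il1b, 0.18 ± 1.09 for nfkbiaa, -0.25 ± 1.04 for MMP9 and 0.85 ± 1.38 for cxcl8a. Each of these had a Benjamini-Hochberg adjusted p of 1.0 in this test. Without S30 to S33 the same genes had -0.98 ± 1.1, -0.49 ± 0.95, -0.91 ± 0.90 and 0.13 ± 1.18. Over the whole series il1b ranged from 0.836 to 5.55 CPM in the 4 libraries S30 to S33, and from 24.6 to 1379 CPM in the other 26.

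**Figure D1:**
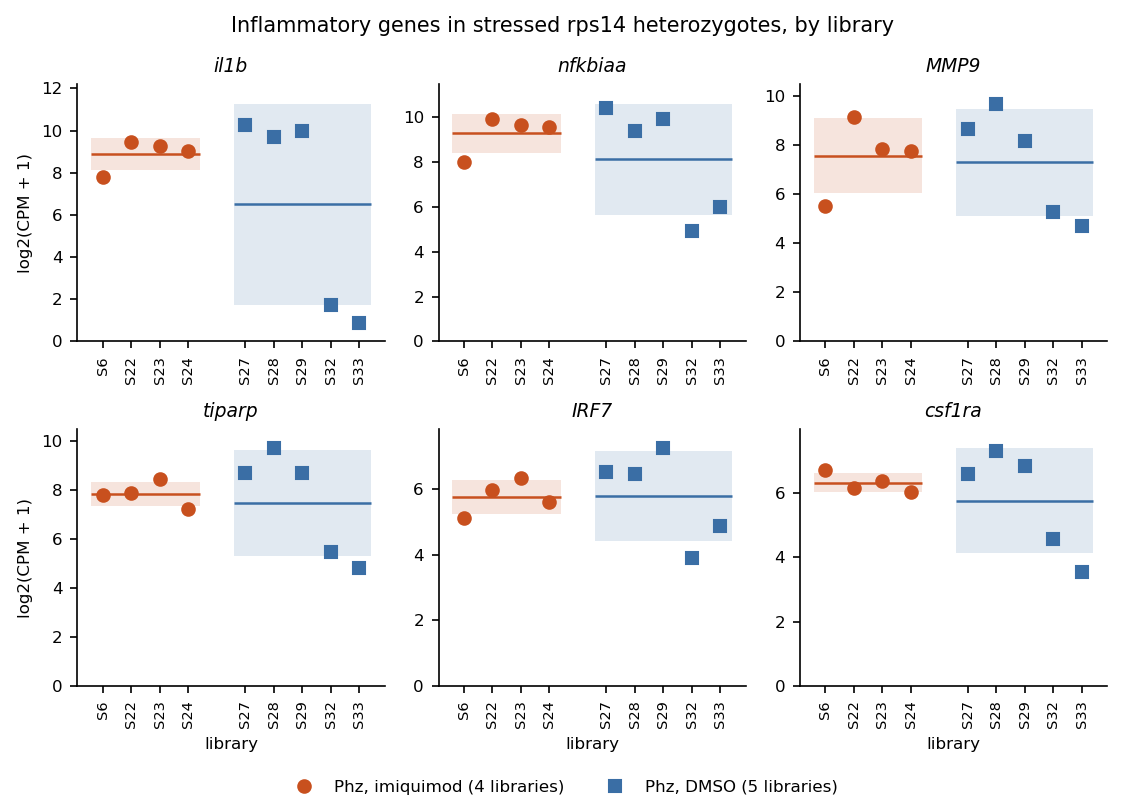
Expression of il1b, nfkbiaa, MMP9, tiparp, IRF7 and csf1ra in each library, as log2(CPM + 1), with imiquimod libraries as circles and DMSO libraries as squares. Lines are group means and bands 1 SD. il1b and nfkbiaa are lowest in S32 and S33, with il1b at 219 to 703 CPM in the imiquimod libraries and 842 to 1216 CPM in S27 to S29.

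Components of the receptor pathway upstream of these genes had small differences or wide errors. TLR7 itself was close to the limit of detection, at 0.0, 0.287, 0.0 and 0.0649 CPM with imiquimod and 0.0, 1.80, 0.943, 0.0 and 0.697 CPM with DMSO, so no difference was detectable at this depth. The adaptor MYD88 had 53.6, 30.6, 54.7 and 60.6 CPM with imiquimod and 58.2, 62.4, 70.25, 44.4 and 37.4 CPM with DMSO, a log2 fold change of -0.13 ± 0.26. The ubiquitin ligase TRAF6 was at 0.04 ± 0.40 and the kinase IRAK4 at -0.21 ± 0.34, with overlapping groups. UNC93B1, which carries endosomal toll-like receptors to their compartment, had 28.8, 28.3, 19.5 and 16.2 CPM with imiquimod, against 17.1, 11.3, 17.2, 14.7 and 7.81 CPM with DMSO. The UNC93B1 groups overlapped only between S24 and the DMSO libraries S27 and S29, and the log2 fold change was 0.77 ± 0.39 (unadjusted p = 0.0548, adjusted p = 1.0, edgeR). IKBKE, a kinase that activates interferon regulatory factors, was at 0.83 ± 0.40 (unadjusted p = 0.0464, adjusted p = 1.0, edgeR). Without S30 to S33, UNC93B1 was at 0.62 ± 0.44 and IKBKE at 0.61 ± 0.41. Other pathway genes lay on the lower side, with TOLLIP at -0.50 ± 0.30 and the kinase gene TBK1 at -0.42 ± 0.26. IRF7 had 33.7, 61.9, 80.0 and 47.5 CPM with imiquimod and 90.2, 87.0, 151, 13.9 and 28.2 CPM with DMSO. As for il1b, every imiquimod library lay below S27 to S29 and above S32 and S33. The IRF7 log2 fold change was -0.41 ± 0.72, or -0.96 ± 0.55 without S30 to S33.

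Lists of genes are described here and not tested, since they were chosen with earlier results known. Of 48 NF-kB and cytokine genes tested, 28 had a log2 fold change above 0 and the median was 0.04. Over all 19930 genes 51.4% were above 0 and the median was 0.01. At an unadjusted p under 0.05, 3 of the 48 were higher and 0 lower, beside 2.99% and 1.32% of all genes. Of these, cxcl8b.3 and cxcl12b had no count in any DMSO library. The third, ccl19a.1, had 3.99, 1.58, 3.23 and 4.28 CPM with imiquimod, against 0.0, 0.0, 0.0, 0.970 and 0.0 CPM with DMSO. The ccl19a.1 groups did not overlap, at a level near 0 with DMSO. Without S30 to S33, 19 of the 48 were above 0 and the median was -0.34, beside 53.7% of all genes. Their summed expression was 2600, 7351, 7309 and 4749 CPM with imiquimod, against 9519, 7391, 7342, 1193 and 1455 CPM with DMSO. For 38 toll-like receptor pathway genes the median was -0.05, or -0.23 without those libraries. For 46 immediate-early genes, which respond to stimulation within minutes, the median was 0.13, or -0.18 without them, and the summed level was 8161 to 12093 CPM with imiquimod, against 11990 to 14094 CPM in S27 to S29 and 3087 and 3382 CPM in S32 and S33. The numbering and the treatment cannot be told apart for these lists either.

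Across all genes the difference between imiquimod and DMSO was small beside the spread of the libraries. edgeR's quasi-likelihood test called 0 of 19930 genes (0.0%) at an adjusted p under 0.05, and the smallest adjusted p was 0.76. At an unadjusted p under 0.05 it gave 858 genes (4.31%), of which 595 (2.99%) were higher and 263 (1.32%) lower with imiquimod. limma's voom called 0 genes and DESeq2 called 13, of which 11 were higher and 2 lower. Of the 13, 9 had no count at all in 1 of the 2 groups and 9 had a mean under 2 CPM, so their fitted folds give no size. For 284 genes (1.42%) all imiquimod libraries lay above all DMSO libraries, for 116 (0.582%) all lay below, and together these were 400 genes (2.01%). Without S30 to S33 edgeR called 0 of 20605 genes and gave 903 (4.38%) at an unadjusted p under 0.05.

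**Figure D2:**
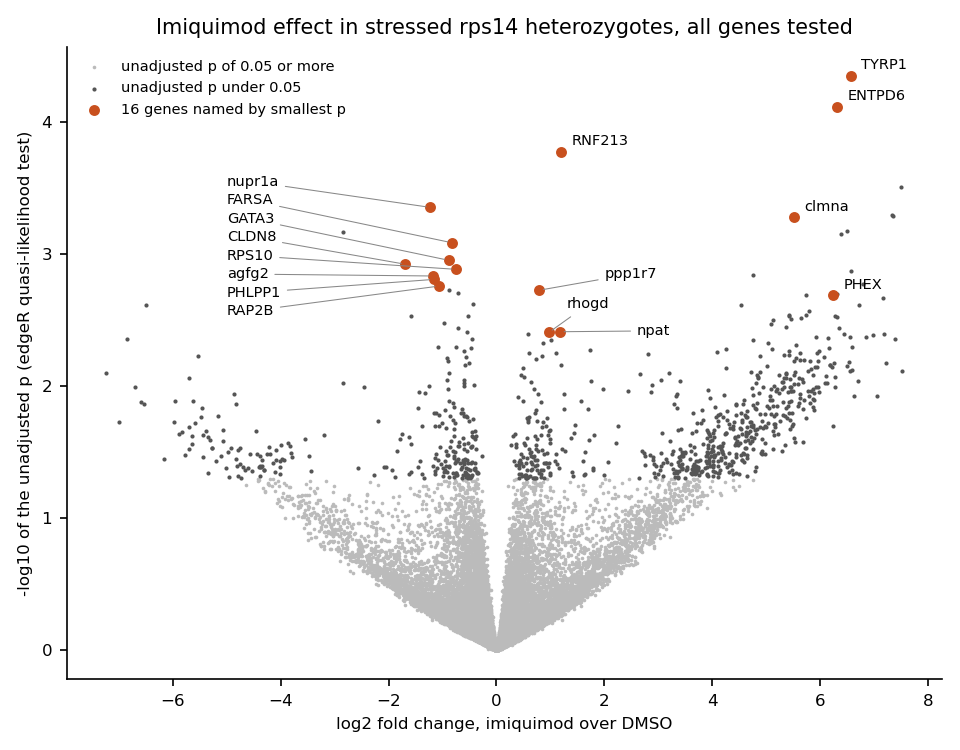
Log2 fold change of imiquimod over DMSO (x axis) against -log10 of the unadjusted p (y axis) for the 19930 genes tested, with the 16 genes given as values in the text named. The smallest adjusted p is 0.76, so no point is past the threshold.

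The genes of smallest unadjusted p and a mean of at least 2 on the log2 CPM scale are given as values, 8 in each direction. RNF213, which encodes a large ubiquitin ligase linked to interferon and vascular disease in humans, had 79.2, 76.0, 65.5 and 67.0 CPM with imiquimod and 32.6, 32.99, 39.0, 37.5 and 14.4 CPM with DMSO. All imiquimod libraries were above all DMSO libraries, and S32 was level with S27 to S29. Its log2 fold change was 1.2 ± 0.28 and stayed at 1.06 ± 0.31 without S30 to S33 (unadjusted p = 0.000167 and adjusted p = 1.0 with all libraries, edgeR). ppp1r7, a regulatory subunit of protein phosphatase 1, had 84.3, 61.8, 56.7 and 74.0 CPM with imiquimod, against 31.7, 48.7, 32.5, 41.5 and 44.9 CPM with DMSO. Here too the groups did not overlap, with a log2 fold change of 0.80 ± 0.24. rhogd, which encodes a small GTPase, had 32.7, 32.2, 28.6 and 59.6 CPM with imiquimod and 20.6, 16.2, 16.9, 26.6 and 17.6 CPM with DMSO, and npat, a coactivator of histone genes at the start of DNA replication, had 54.8, 33.04, 27.01 and 67.0 CPM against 9.45, 27.6, 14.4, 30.6 and 18.5 CPM. The rhogd groups did not overlap, and those of npat overlapped only at S23 with S28 and S32.

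The other 4 higher genes were at low level in DMSO. The melanin enzyme gene TYRP1, whose symbol is shared by 2 identifiers, had 49.0, 15.5, 126.4 and 1.43 CPM with imiquimod, against 0.0, 0.0, 0.943, 0.728 and 0.697 CPM with DMSO. The nucleotidase gene ENTPD6 had 18.5, 2.59, 2.19 and 10.3 CPM, against 0.0, 0.490, 0.0, 0.0 and 0.0 CPM, and clmna 0.363, 4.31, 1.96 and 20.5 CPM, against 0.0, 0.163, 0.354, 0.121 and 0.0 CPM. For these 3 genes the groups did not overlap, but the imiquimod libraries themselves differed many-fold. PHEX, an endopeptidase gene of bone and tooth, rested on 1 library, with 12.7 CPM in S24 and at most 0.808 CPM in any other of the 9. DESeq2 called TYRP1, ENTPD6 and clmna at adjusted p of 9.03e-05, 0.00112 and 0.0263, whereas edgeR gave 0.76, 0.76 and 1.0.

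The 8 genes on the lower side were detected in all 9 libraries. nupr1a, a small chromatin protein induced by cell stress, had 33.3, 31.6, 19.1 and 25.6 CPM with imiquimod, against 57.0, 77.2, 50.5, 62.8 and 73.5 CPM with DMSO. No library of the 2 groups overlapped, and the log2 fold change of -1.23 ± 0.31 was -1.15 ± 0.35 without S30 to S33. FARSA, a subunit of phenylalanyl-tRNA synthetase, had 90.2, 122, 133 and 90.2 CPM with imiquimod and 189, 181, 231, 148 and 218 CPM with DMSO, a log2 fold change of -0.83 ± 0.23 with no overlap. PHLPP1, a phosphatase that acts on the kinase AKT, had 18.6, 22.8, 17.6 and 15.8 CPM with imiquimod, against 37.2, 34.1, 32.2, 61.6 and 44.3 CPM with DMSO, again without overlap. The tight junction gene CLDN8 had 12.5, 6.18, 4.27 and 4.28 CPM, against 26.4, 24.7, 15.3, 29.2 and 13.9 CPM.

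GATA3, a transcription factor of lymphoid and other lineages, had 72.6, 91.1, 73.0 and 58.8 CPM with imiquimod and 148, 145, 77.4, 112 and 201 CPM with DMSO, so that only S22 reached above the lowest DMSO library. agfg2 and the Ras-like GTPase gene RAP2B had log2 fold changes of -1.17 ± 0.34 and -1.06 ± 0.31, where only the DMSO library S32 reached into the imiquimod range for agfg2, and only S29 for RAP2B. Adjusted p was 1.0 in edgeR for each of these genes. In the stress response list, EIF2S1, the alpha subunit of the translation initiation factor that stress kinases phosphorylate, stood the other way, with 94.5, 129, 116 and 99.4 CPM with imiquimod and 68.4, 43.9, 90.4, 77.7 and 85.0 CPM with DMSO (log2 fold change 0.59 ± 0.19, no overlap). The 53 genes of the unfolded protein and integrated stress response had a median of -0.01, or -0.18 without S30 to S33.

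**Figure D3:**
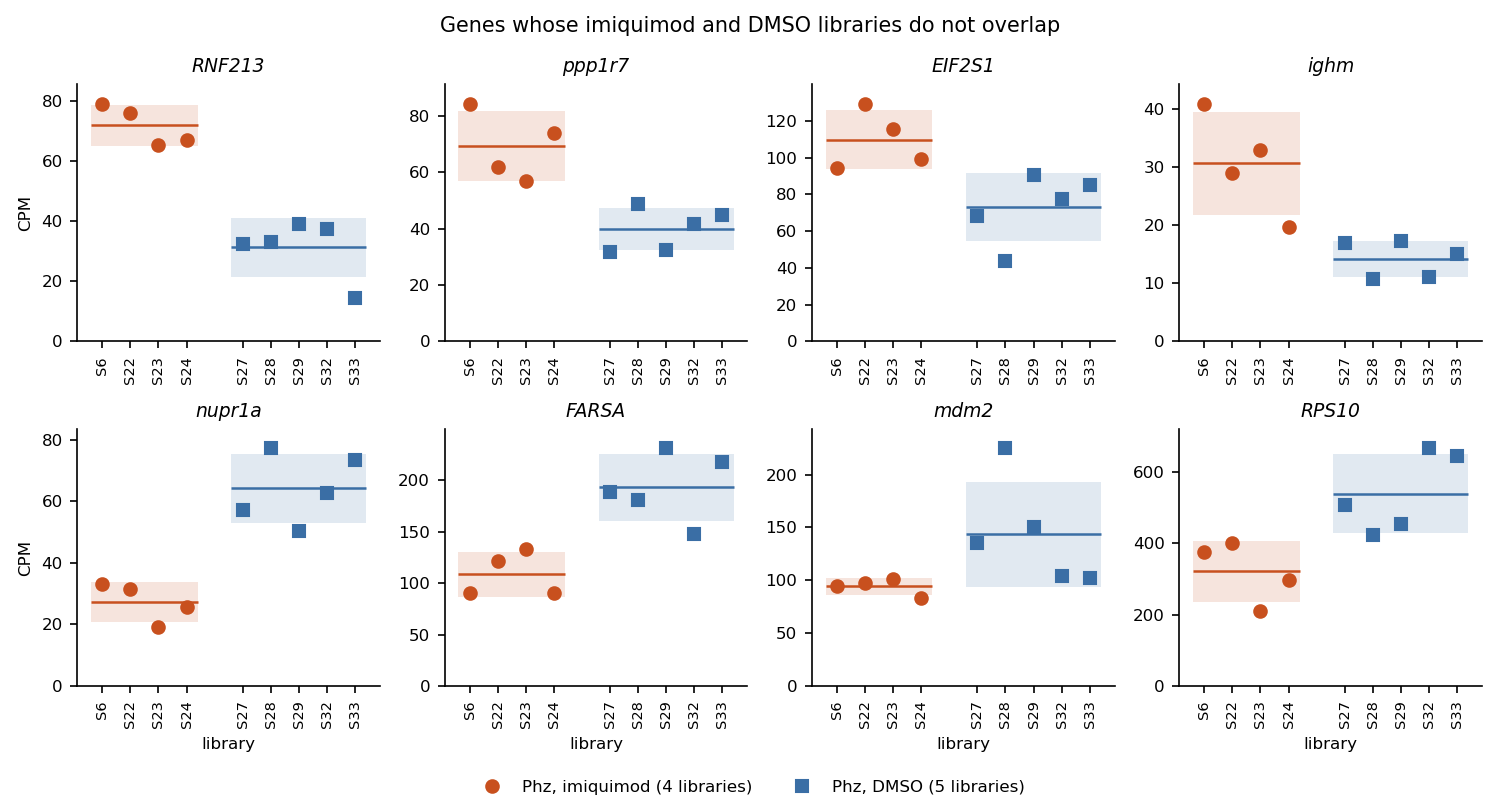
CPM in each library for 8 genes shown because their imiquimod libraries (circles) and DMSO libraries (squares) do not overlap, with group means as lines and 1 SD as bands. The upper 4 genes are higher with imiquimod, such as RNF213 at 65.5 to 79.2 CPM against 14.4 to 39.0 CPM, and the lower 4 are lower. The adjusted p is 1.0 for each gene.

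Ribosomal protein genes were examined because the larvae lack a copy of functional rps14. RPS14 itself had 332, 202, 143 and 241 CPM with imiquimod, against 311, 220, 340, 252 and 241 CPM with DMSO, a log2 fold change of -0.25 ± 0.25. In stressed wild type RPS14 averaged 537 ± 131 CPM with imiquimod and 542 ± 89.4 CPM with DMSO (SD, n = 4 and 3), above the heterozygous means of 230 ± 79.1 and 273 ± 50.7 CPM (SD, n = 4 and 5). Of 33 small subunit genes tested, 5 were lower and 0 higher at an unadjusted p under 0.05, beside 1.32% of all genes lower. RPS10 had 376, 401, 211 and 297 CPM with imiquimod and 509, 423, 454, 668 and 646 CPM with DMSO, with no overlap and a log2 fold change of -0.75 ± 0.21. Without S30 to S33 the value for RPS10 was -0.50 ± 0.24. Of the others, rps3 was at -0.43 ± 0.17.

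Most ribosomal protein genes were nearer to 0 than these. The median over the 33 small subunit genes was -0.08 and over 45 large subunit genes -0.06, of which 3 were lower at an unadjusted p under 0.05, again beside 1.32% of all genes. Among these, RPL17 was at -0.71 ± 0.21 and RPL23A at -0.57 ± 0.20. RPS9 (0.12 ± 0.21), RPS19 (0.07 ± 0.27) and RPL11 (-0.01 ± 0.21) had no difference beyond their error, and S23 had the lowest summed level of both lists, with 18631 CPM of small subunit genes beside 21747 to 27176 CPM in the other imiquimod libraries and 19052 to 27106 CPM with DMSO. Ribosome biogenesis genes had a median of -0.04 over 61 genes, or 0.17 without S30 to S33. At an unadjusted p under 0.05, 1 was higher and 3 lower, beside 2.99% and 1.32% of all genes. The nucleolar GTPase gene GNL3 and the rRNA methyltransferase gene nop2 were at -0.39 ± 0.16 and -0.46 ± 0.19. Without S30 to S33 these 2 genes were at -0.25 ± 0.17 and -0.31 ± 0.20. The higher gene, npm1b, was at 0.55 ± 0.27, or 0.78 ± 0.32 without S30 to S33.

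Target genes of p53 were given because ribosomal protein loss is known to act on that factor. mdm2, whose protein marks p53 for degradation and which p53 induces, had 94.2, 97.7, 101.5 and 83.6 CPM with imiquimod, against 135, 225, 151, 104.5 and 101.7 CPM with DMSO. The highest imiquimod library was just below the lowest DMSO library, S33, and the log2 fold change was -0.61 ± 0.22 (unadjusted p = 0.00987, adjusted p = 1.0, edgeR), or -0.83 ± 0.23 without S30 to S33. CCNG1, a cyclin gene induced by p53, had 566, 1084, 1183 and 1021 CPM with imiquimod and 1486, 1625, 1107, 1162 and 1182 CPM with DMSO. The CCNG1 groups overlapped at S23, S29, S32 and S33, and the log2 fold change was -0.45 ± 0.19. BTG1, an antiproliferative gene, was at -0.47 ± 0.21. The growth arrest gene cdkn1a was at 0.26 ± 0.33 and the kinase gene PLK3 at 0.75 ± 0.30. Of the 42 genes of this list 1 was higher and 3 lower at an unadjusted p under 0.05, beside 2.99% of all genes higher and 1.32% lower, and its median was 0.08, or -0.08 without S30 to S33.

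Erythroid genes were mostly higher with imiquimod, and more so against S27 to S29 than against all DMSO libraries. Of 55 genes tested 42 had a log2 fold change above 0 (51.4% of all genes), and the median was 0.23. At an unadjusted p under 0.05, 5 were higher and 0 lower, beside 2.99% and 1.32% of all genes. Of the 5, 1 was the SLC4A1 identifier near 0, at 0.0 to 0.325 CPM with imiquimod and 0.0 CPM in every DMSO library. Without S30 to S33, 47 of 55 were above 0 (53.7% of all genes) and the median was 0.50. Their summed expression was 7841, 6349, 5948 and 7701 CPM with imiquimod and 4432, 5037, 4938, 7386 and 6538 CPM with DMSO. All imiquimod libraries were thus above S27 to S29, and S32 and S33 lay among them. The DMSO libraries of lowest il1b thus had the highest erythroid sums within that group, and the part of that split in the erythroid values was not tested.

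alas2, the first enzyme of haem synthesis in red cells, had 106, 22.6, 34.6 and 40.4 CPM with imiquimod, against 26.7, 3.27, 8.84, 12.4 and 27.5 CPM with DMSO. Only S22 lay below the highest DMSO library, and the log2 fold change was 1.69 ± 0.65 (unadjusted p = 0.0149, adjusted p = 1.0, edgeR). The embryonic alpha globin gene hbae1.2 had 59.4, 35.6, 43.2 and 46.5 CPM with imiquimod and 9.75, 9.47, 7.66, 34.2 and 38.5 CPM with DMSO, so the DMSO libraries split between S27 to S29 and the pair S32 and S33. Its log2 fold change was 1.21 ± 0.53 with all libraries and 2.38 without S30 to S33. hemgn, a nuclear protein of erythroid differentiation, had 47.5, 12.8, 21.01 and 25.1 CPM with imiquimod, against 8.69, 11.3, 14.6, 23.3 and 10.9 CPM with DMSO. The hemgn groups overlapped, and S33 was not among the higher DMSO libraries. gata1a, the master transcription factor of the lineage, had 31.2, 48.8, 21.1 and 56.7 CPM with imiquimod and 11.3, 7.51, 28.1, 45.1 and 68.3 CPM with DMSO, a log2 fold change of 0.30 ± 0.61 with all libraries and 1.35 ± 0.61 without S30 to S33. In gata1a and klf1, but not in EPOR, S32 and S33 were both above S27 to S29. The factor gene klf1 was at 0.02 ± 0.46 and the erythropoietin receptor gene EPOR at 0.46 ± 0.42.

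**Figure D4:**
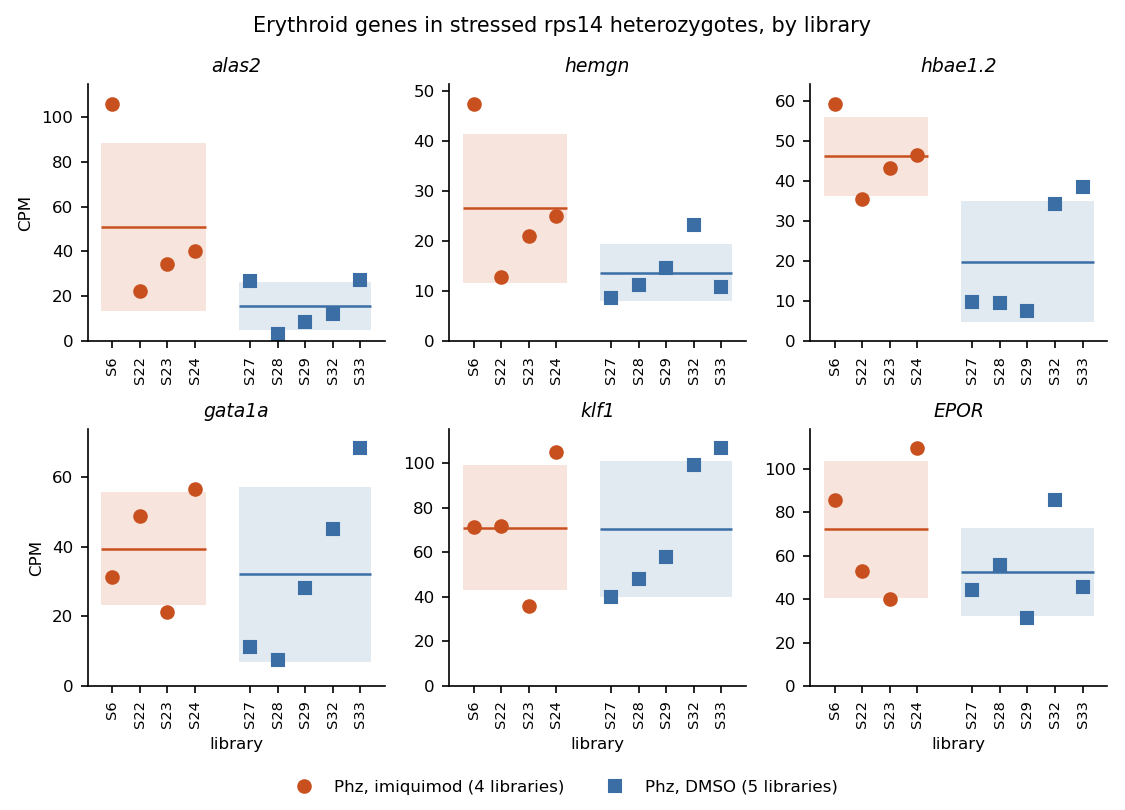
CPM in each library for 6 erythroid genes, imiquimod as circles and DMSO as squares, with group means as lines and 1 SD as bands. alas2 and hbae1.2 are higher in most imiquimod libraries, while gata1a and klf1 reach their highest DMSO values in S32 and S33, at 45.1 and 68.3 CPM for gata1a.

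Interferon and JAK-STAT genes, which act downstream of many cytokines, had medians slightly above 0, which were not tested. The median of 39 interferon response genes was 0.08, and 1 was higher and 0 lower at an unadjusted p under 0.05, beside 2.99% and 1.32% of all genes. That gene was ifit8, with 1.09, 1.44, 1.39 and 1.04 CPM with imiquimod, against 0.0, 0.163, 0.0, 0.0 and 0.0 CPM with DMSO. The ifit8 groups did not overlap, at a level near 0 with DMSO. The antiviral gene isg15 was at -0.11 ± 1.00 and lay between 0.0 and 17.98 CPM in all 9 libraries. Of 39 JAK-STAT genes 27 were above 0 (51.4% of all genes), with a median of 0.16. Without S30 to S33, 22 of the 39 were above 0 (53.7% of all genes), with a median of 0.15. Leaving out 1 library at a time gave JAK-STAT medians of 0.05 to 0.21. jak3, the kinase of lymphoid cytokine receptors, was at -0.74 ± 0.34, STAT3 at 0.13 ± 0.23, stat5a at 0.29 ± 0.28 and the STAT5-induced inhibitor gene CISH at 0.33 ± 0.45. Imiquimod can also act on the aryl hydrocarbon receptor in human cells. Of 17 target genes of that receptor 7 were above 0 (51.4% of all genes). tiparp, a classical target, had 220, 235, 343 and 146 CPM with imiquimod and 405, 828, 407, 42.7 and 27.3 CPM with DMSO, again low in S32 and S33. The tiparp log2 fold change was -0.54 ± 0.95, or -1.19 ± 0.76 without S30 to S33.

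Markers of stem cells and of the other blood lineages were close to level with all libraries in. The median of 49 stem and progenitor genes was 0.01. At an unadjusted p under 0.05, 1 was higher and 1 lower, beside 2.99% and 1.32% of all genes. The higher one was FOS, at 0.83 ± 0.35 (unadjusted p = 0.0235, edgeR), or 0.42 ± 0.25 without S30 to S33, and the lower one was cd34. RUNX1, needed for the emergence of blood stem cells, was at 0.29 ± 0.36, gata2b at -0.35 ± 0.39 and MYB at -0.18 ± 0.24. The surface sialomucin gene cd34 had 57.7, 129, 102 and 105 CPM with imiquimod, against 184, 163, 144, 310 and 110 CPM with DMSO, with only S22 above the lowest DMSO library (log2 fold change -0.89 ± 0.26, unadjusted p = 0.00185, adjusted p = 1.0, edgeR). itga2b, whose promoter drove the sorted GFP, had 1.21, 5.60, 2.08 and 10.3 CPM with imiquimod and 3.2, 22.5, 17.9, 8.37 and 15.6 CPM with DMSO, a log2 fold change of -1.48 ± 0.94. The other thrombocyte receptor genes mpl and GP1BB were at -0.66 ± 0.67 and 0.42 ± 0.51, and the tetraspanin gene cd9b had 37.6, 40.7, 57.5 and 40.2 CPM against 14.2, 24.2, 9.90, 5.58 and 2.23 CPM. For cd9b the groups did not overlap, and the DMSO libraries S32 and S33 were the lowest. The cd9b log2 fold change was 1.97 ± 0.73, or 1.48 ± 0.72 without S30 to S33. Of the 40 thrombocyte genes 18 were above 0 (51.4% of all genes), with a median of -0.13. cd9b was the 1 that was higher at an unadjusted p under 0.05 (2.99% of all genes). The 2 that were lower (1.32% of all genes) were THBS1, which encodes a matrix protein of platelet granules, at -1.79 ± 0.76, and the ATP receptor gene p2rx1 at -0.89 ± 0.42, and p2rx1 was at 0.15 ± 0.41 without S30 to S33. Of 39 lymphoid genes 17 were above 0 (51.4% of all genes), with a median of -0.19, or 0.11 without S30 to S33. The 2 that were higher at an unadjusted p under 0.05 (2.99% of all genes) were ighm and TOX. GATA3, given above, was the 1 that was lower (1.32% of all genes), and rorc, a transcription factor gene of innate and helper lymphocytes, was at -0.75 ± 0.48. The immunoglobulin mu chain gene ighm had 40.9, 29.02, 32.9 and 19.7 CPM with imiquimod and 16.9, 10.8, 17.2, 11.2 and 15.1 CPM with DMSO, and the transcription factor gene TOX 17.4, 24.6, 21.01 and 20.1 CPM against 6.70, 8.0, 11.8, 10.7 and 10.5 CPM. In both genes all imiquimod libraries lay above all DMSO libraries, as for 1.42% of all genes.

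Summed levels of myeloid markers followed the split of the DMSO libraries, and single markers did so in part. Summed over 39 neutrophil genes the level was 16754, 28228, 22034 and 19289 CPM with imiquimod and 31797, 36736, 28928, 13662 and 17071 CPM with DMSO. All imiquimod libraries were below S27 to S29 and 3 of the 4 were above both S32 and S33. The neutrophil median was -0.11, or -0.41 without S30 to S33, and that of 54 macrophage genes 0.20, or -0.13. Above 0 were 14 of 39 neutrophil and 36 of 54 macrophage genes, beside 51.4% of all genes. Without S30 to S33 these were 6 and 23, beside 53.7%. At an unadjusted p under 0.05, 1 neutrophil gene (LTB4R) was lower and 1 macrophage gene (grna) higher, beside 1.32% and 2.99% of all genes. In the other direction there were 0 in either list. The grna level was 121 to 159 CPM with imiquimod and 33.95 to 129 CPM with DMSO, a log2 fold change of 0.73 ± 0.32. LTB4R, a leukotriene receptor gene of neutrophils, had 32.9, 45.5, 39.4 and 27.7 CPM with imiquimod, against 47.5, 109, 73.3, 55.3 and 65.5 CPM with DMSO, with no overlap and a log2 fold change of -0.95 ± 0.37. For LTB4R S32 and S33 were both above S27. csf1ra, the receptor of the macrophage growth factor, had 104, 70.5, 82.3 and 64.3 CPM with imiquimod and 95.7, 156, 115, 22.6 and 10.6 CPM with DMSO. Its log2 fold change was 0.01 ± 0.51, or -0.59 ± 0.38 without S30 to S33.

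Lists of marker genes for tissues outside the blood had counts in every library, and S27 was high for 2 of the lists. Epidermal genes summed to 3033 to 4762 CPM with imiquimod and 2159 to 3519 CPM with DMSO, and skeletal muscle genes to 1011 to 1112 and 911 to 1271 CPM. Most of each epidermal sum was the actin-binding gene pfn1, at 2555 to 4145 CPM with imiquimod and 1681 to 3022 CPM with DMSO. That sum therefore does not by itself show epidermal cells. Liver and exocrine pancreas genes summed to 821, 1248, 703 and 1869 CPM with imiquimod and to 11205, 1098, 1045, 512 and 665 CPM with DMSO, the 11205 CPM being S27. Neural and retinal genes summed to 818 CPM in S27, beside 326 to 432 CPM in the other DMSO libraries and 352 to 613 CPM with imiquimod. A large part of most of these sums was STMN1, at 218 to 346 CPM with imiquimod and 167 to 231 CPM with DMSO. The median of 42 liver and pancreas genes was -1.81 with all libraries and 1.98 without S27, so that this value turned on 1 library. Endothelial and kidney tubule genes also summed to ranges that overlapped between the groups, for example 542 to 694 CPM with imiquimod and 514 to 779 CPM with DMSO for endothelial genes. Their part in the results above was not tested.

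Genes of energy metabolism and protein quality had medians close to that of all genes with all libraries in. Of 13 mitochondrially encoded genes 2 were lower at an unadjusted p under 0.05, beside 1.32% of all genes. MT-ND4, a subunit of respiratory complex I, had 368, 549, 451 and 620 CPM with imiquimod, against 703, 717, 644, 797 and 931 CPM with DMSO, with no overlap, and the oxidase subunit MT-CO3 was at -0.46 ± 0.15. The median of the list was -0.09, or 0.16 without S30 to S33, and 81 nuclear genes of oxidative phosphorylation had a median of 0.09. Among 46 glycolysis genes the median was -0.02, among 61 cell cycle genes 0.01, among 42 heat shock and chaperonin genes -0.02 and among 50 NRF2 and antioxidant genes 0.02. Without S30 to S33 the glycolysis median was -0.22, with 15 of 46 above 0 (53.7% of all genes). The cell cycle median was then 0.13, with 45 of 61 above 0. With all libraries 3 glycolysis genes were lower and 0 higher at an unadjusted p under 0.05, beside 1.32% and 2.99% of all genes. Antigen presentation genes, a list that 34 members represented, had a median of 0.30 with 25 above 0 (51.4% of all genes). Of them 0 passed an unadjusted p under 0.05 (4.31% of all genes). A median fold change of fitted values does not bound genes with no count in a group. Setting the 15 such list entries at a bound from 3 counts over the group moved no list median by more than 0.0265.

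**Figure D5:**
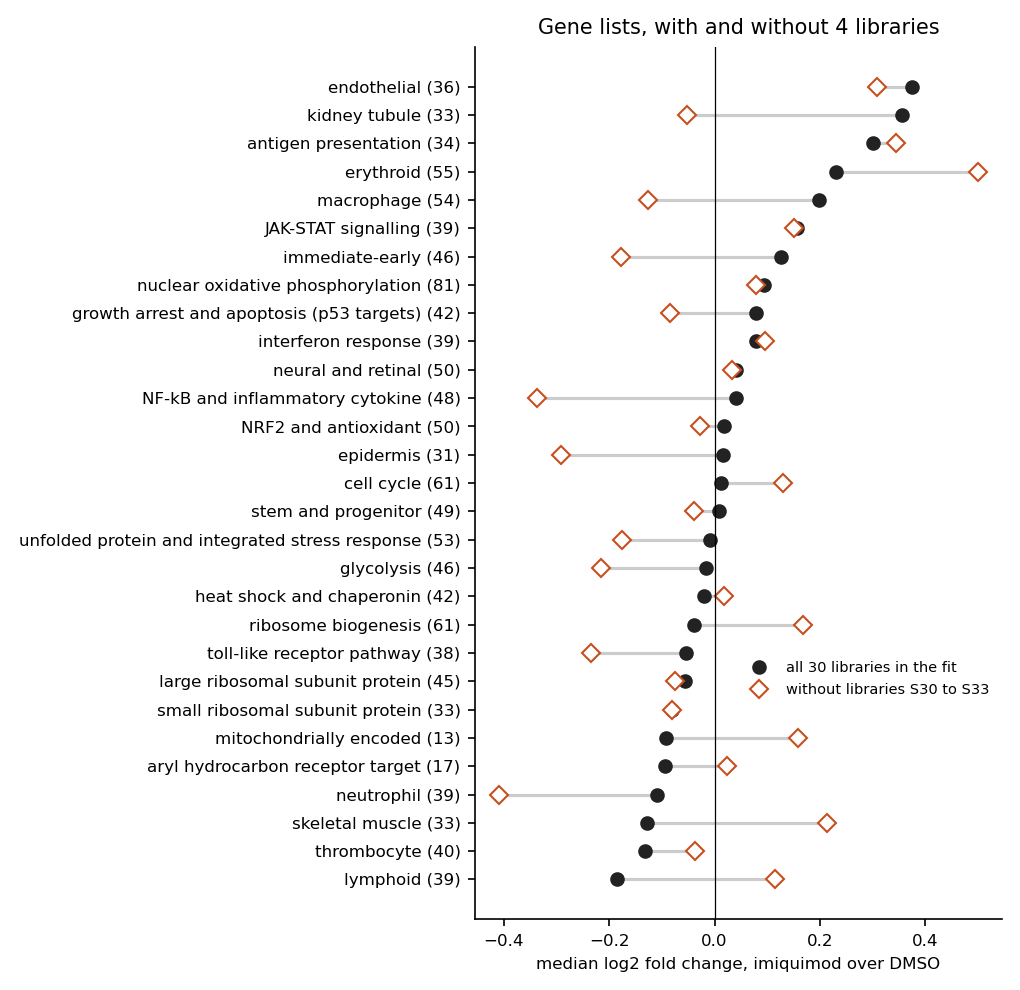
Median log2 fold change of imiquimod over DMSO for 29 gene lists, with the number of genes tested in brackets, for all libraries (filled circles) and without S30 to S33 (open diamonds). The NF-kB and neutrophil medians move to -0.34 and -0.41 and the erythroid median to 0.50 when those libraries are left out. The liver and exocrine pancreas list, at -1.81, is not drawn.

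Whether the effect in stressed heterozygotes differed from that in stressed wild type was tested as an interaction. edgeR called 0 of 19930 genes (0.0%), with a smallest adjusted p of 0.878, and gave 1091 genes (5.47%) at an unadjusted p under 0.05, of which 322 (1.62%) had the higher effect in heterozygotes and 769 (3.86%) the lower, and the difference was above 0 for 44.7% of all genes. limma's voom called 0 and DESeq2 36. The wild-type DMSO group holds S30 and S31, and leaving out S30 to S33 gave 40 calls that rest on 1 remaining wild-type DMSO library, assumed to vary like the other groups. MATK, a kinase gene that acts on SRC family kinases, had a difference between the 2 effects of -3.76 ± 0.91. It averaged 10.8 ± 5.17 CPM with imiquimod and 18.8 ± 15.5 CPM with DMSO in stressed heterozygotes (SD, n = 4 and 5), and 16.8 ± 13.6 and 2.14 ± 1.92 CPM in stressed wild type (SD, n = 4 and 3). In the heterozygous DMSO libraries MATK had 22.4, 44.25 and 12.3 CPM in S27 to S29, and 6.79 and 8.36 CPM in S32 and S33. Its effect in stressed heterozygotes was -0.80 ± 0.57, or -1.26 ± 0.55 without S30 to S33. The mitochondrial fission adaptor gene mief2 differed by -3.47 ± 0.87 and the transporter gene abcg2c by -1.73 ± 0.44. In the other direction pdha1a, a subunit of pyruvate dehydrogenase, differed by 0.84 ± 0.26 and the kinase gene RPS6KA3 by 1.12 ± 0.35. Their effects were 0.28 ± 0.17 and 0.33 ± 0.23 in stressed heterozygotes, and -0.56 ± 0.19 and -0.79 ± 0.265 in stressed wild type. GPR25 differed by 6.69 ± 2.07 and shroom4 by 5.98 ± 1.88, with some libraries at or near 0 CPM. ppp1r7 differed by 1.077 ± 0.36, but it was chosen by its small p in stressed heterozygotes. The same libraries enter this difference, so the choice favours that value. Over 12180 genes averaging 2 or more on the log2 CPM scale, the imiquimod effects in stressed heterozygotes and stressed wild type, which share no library, had a Pearson r of 0.11, a description across genes that are not independent.

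The difference from the effect in unstressed heterozygotes was tested in the same way. edgeR called 0 of 19930 genes (0.0%), with a smallest adjusted p of 0.461 and 1093 genes (5.48%) at an unadjusted p under 0.05, of which 631 (3.17%) had the higher effect after Phz and 462 (2.32%) the lower, and the difference was above 0 for 51.1% of all genes. limma's voom called 0 genes and DESeq2 10. SOX4, a transcription factor gene of progenitor cells whose symbol is shared by 2 identifiers, had 35.8, 28.2, 29.7 and 11.5 CPM with imiquimod and 50.6, 45.9, 36.4, 61.5 and 54.4 CPM with DMSO after Phz, with no overlap, and averaged 58.3 and 23.7 CPM without Phz. Its difference between effects was -2.22 ± 0.47 (adjusted p = 0.461, edgeR). The elongation factor gene eef2b had 7030, 7161, 4886 and 5654 CPM with imiquimod, against 8200, 7805, 7947, 9354 and 8721 CPM with DMSO after Phz, without overlap, and 9196 and 6765 CPM on average without Phz, a difference of -0.89 ± 0.20. The actin-binding gene pfn1 and the RNA-binding gene hnrnpa0l differed in the other direction, by 1.03 ± 0.26 and 0.86 ± 0.20. For mdm2 and GATA3 the difference was -1.20 ± 0.33 and -1.36 ± 0.37, with an adjusted p of 0.757 each in edgeR. GATA3 was chosen by its small p in stressed heterozygotes, whose libraries enter this difference, so the choice favours its value. The 2 effects had a Pearson r of -0.07 across the 12180 genes.

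Measures of the libraries themselves overlapped between the groups. Genes with at least 1 count numbered 18362 ± 1335 with imiquimod and 16741 ± 1160 with DMSO (SD, n = 4 and 5; exact two-sided permutation p = 0.0794, 0.318 adjusted over 4 measures). Mitochondrially encoded genes took 1.66 ± 0.15% of counts with imiquimod and 1.92 ± 0.37% with DMSO (exact permutation p = 0.27), and the 50 most abundant genes took 27.02 ± 0.51% and 27.3 ± 0.64% (exact permutation p = 0.444). Total counts were higher by 2386329 on average with imiquimod (exact permutation p = 0.222), where S24 alone held 15238153. The smallest p this design can give is 0.0159. The more deeply sequenced group thus also had more genes detected, and the part of depth in genes at 0 with DMSO was not tested.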

How the data were processed

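RNA-seq counts were analysed for 30 libraries and 20631 genes. Per the submitters' processing notes, FastQC 0.11.9, Trimmomatic 0.39, HISAT2 2.1.0, SAMtools 1.9, featureCounts of Subread 2.0.0 and DESeq2 were used with build GRCz11. The values deposited by the authors are raw read counts per Ensembl gene, without normalization, and no gene has a total under 25. The annotation release and strand setting are not given in the sources used here, so overlapping antisense genes cannot be told apart. Symbols were matched to 19528 identifiers, of which 2627 share a symbol with another identifier. Reads of such near copies may have been split between them. The symbols SOX4, RPS6KA3, THBS1 and STMN1 are each shared by 2 identifiers, and the values given are those of 1 of them. Many symbols are in capitals, as for the human gene.

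All 8 groups entered 1 model in edgeR 4.0.16 (R 4.3.3) with TMM scaling, its filter on low counts by group and a robust quasi-likelihood test with Benjamini-Hochberg adjustment over 19930 genes, and the biological coefficient of variation was 0.821. Errors given with fold changes were derived from the F statistic of the test and are approximate. Genes at 0 in all libraries of a group have no bounded fold. Levels are TMM-scaled CPM, and levels of different genes were not compared because gene lengths were not used. Alternatives were DESeq2 1.42.0, limma 3.58.1 (voom), DESeq2 size factors, no low-count filter, smaller models, a term for libraries S1 to S6, a replicate block and leaving out libraries. Library measures were compared by exact permutation tests (scipy 1.17.1). The code was tested on simulated data. Library totals were 5703056 to 15238153.

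The members and gene lists were chosen with earlier results of these data known. Named genes were RPS14, TLR7, itga2b, a fixed list of key genes, the 8 per direction of smallest unadjusted p averaging 2 or more in log2 CPM, up to 4 members per list by smallest p, and 4 per direction in each interaction. TRAF6, IRAK4 and the other genes given with values whatever their result belong to that list of key genes. A few genes that this rule names are not reported here.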

Additional observations from a re-analysis of the deposited data

Results flagged for a closer look

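In 229 sets of values, each the libraries of 1 group for a gene, list or library measure, 14 values lay farther from the other libraries of their group than Dixon's criterion allows at 95%. Chance gives about 1 such value in 20 sets. Among imiquimod libraries, S6 had the high value for ahrra (4.233 CPM) and RAP2B (45.96 CPM), and the low value for the summed thrombocyte genes (2166 CPM). S24 had the high value for PHEX (12.72 CPM) and rhogd (59.57 CPM). Among DMSO libraries, S27 was high for summed liver and exocrine pancreas genes (11205 CPM) and summed neural and retinal genes (817.6 CPM). S28 was the only DMSO library with counts of ENTPD6 (0.4899 CPM) and of PHEX (0.1633 CPM). Where the other libraries of a group are all at 0, as for ENTPD6, PHEX and mxa, the criterion flags any count. Those flags therefore do not mark an unusual library. S29 stood apart for flnb (8.369 CPM) and hnrnpa0l (1299 CPM), S32 for mxa (0.6062 CPM) and summed endothelial genes (778.5 CPM), and S33 was low for RNF213 (14.36 CPM).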

How the results depend on the processing

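edgeR called 0 genes for the imiquimod effect in stressed heterozygotes under DESeq2 size factors, no low-count filter, smaller models, a term for S1 to S6 and leaving out S30 to S33, which was chosen after seeing the data. DESeq2 called 13 genes, and 36 and 10 for the differences from stressed wild type and from unstressed heterozygotes. Leaving out S30 to S33 gave 40 calls for the difference from stressed wild type, where 1 wild-type DMSO library was left. Leaving out 1 library at a time gave 0 to 1 calls for the imiquimod effect (ftr78, without S29) and for the difference from unstressed heterozygotes (COG8, without imiquimod replicate 3 of that group). The unadjusted count of 858 was 475 in a model of the 9 libraries alone, and 1091 for the difference from stressed wild type was 721 with the Phz groups alone. With the replicate number as a block 0 genes were called in each comparison. Correlations of same-numbered libraries were -0.0854, 0.0316, 0.0435 and 0.000423, so the numbers give no sign of pairing, and the block moved the endothelial median to 0.626.

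voom medians were 0.393 for interferon, 0.13 for lymphoid, 1.2 for endothelial, 0.44 for muscle, 0.765 for neural, 0.328 for liver and pancreas, 0.226 for aryl hydrocarbon receptor target and 0.521 for antigen presentation genes. The kidney median was 0.0726 with the 9 libraries alone. Without S30 to S33 medians were 0.167 for ribosome biogenesis, 0.114 for lymphoid, -0.0515 for kidney and 0.158 for mitochondrially encoded genes. Leaving out 1 library gave medians of -0.137 to 0.02 for stem and progenitor, 0.26 to 0.799 for endothelial, 0.0753 to 0.665 for kidney, -0.336 to 0.519 for muscle, -0.387 to 0.825 for neural, -2.80 to 1.98 for liver and pancreas, and -0.773 to 0.0834 for aryl hydrocarbon receptor target genes. The difference in genes detected was 1108 to 2168, and the highest was without S6. The causes were not tested. Of list medians, 256 moved by less than the replicate spread and 14 by more over all settings other than leaving out 1 library at a time. Those settings include the smaller models and leaving out S30 to S33. The replicate spread holds the split between S27 to S29 and the pair S32 and S33, so a large shift can stay below it. Without S30 to S33 the NF-kB median went from 0.04 to -0.34 and the immediate-early median from 0.13 to -0.18. The macrophage median went from 0.20 to -0.13. These changes of sign are counted among the 256, which therefore do not show that the medians are stable. Depth limits genes near 0, such as TLR7.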
